A study of Drosophila melanogaster with 20 samples.

Results

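The genes described here are 10 genes known for the larval ring gland, measured in 20 microarrays of Drosophila melanogaster eye imaginal discs: Start1, GstE14, nvd, spok, sro, dib, sad, ouib and mld of ecdysteroid synthesis, and Akh of the corpus cardiacum. They were chosen by gene symbol, most of them as genes whose intensity went up and down together from array to array, so their pattern over the arrays is a description and was not tested. All 10 had a probe set, out of 11982 genes with a probe set of their own. Discs came from wandering larvae of the third instar in which, apart from non-transgenic ones, human proinsulin was driven by GMR-GAL4, active in eye cells behind the morphogenetic furrow. C96Y proinsulin (GMR-GAL4/UAS-hINSC96Y), which lacks a cysteine needed for folding, was carried by lines Mut-101 and Mut-1, wild-type proinsulin (GMR-GAL4/UAS-hINSWT) by lines WT-24 and WT-6, and the non-transgenic discs (Non-Tg) are also listed with GMR-GAL4. The transgenes were carried in 1 copy at 25 °C, and the labels do not say where in the genome each line holds its insert. Each line had 2 arrays of males and 2 of females, so that 8 arrays had C96Y, 8 wild-type proinsulin and 4 no transgene. The labels call the arrays of a line and sex biological replicates but do not say how many larvae or discs made up a sample.

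The ring gland lies above the larval brain and joins 3 endocrine tissues. The prothoracic gland turns dietary cholesterol into ecdysone, the steroid that times moulting and metamorphosis, through enzymes known as the Halloween genes. The corpus allatum makes juvenile hormone, and the corpus cardiacum secretes adipokinetic hormone, the product of Akh, which mobilises fat and sugar. The eye disc is joined to the brain and lies close to the ring gland, and the gland is not named in the labels of these samples. The values are linear array intensities, which depend on the probes, so each gene was compared with itself across arrays and never with another gene. Fewer cells of a type and less RNA per cell cannot be told apart in such samples.

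The arrays were scaled to similar means, 1194 to 1249.8 intensity units, with medians of 213 to 286. The highest median was that of Mut-101 male replicate 2, and the others were at most 249. Of 15 genes that define the eye disc, such as ey, so, eya and ato, 14 were measured, and their summed intensity was between 49129 and 57356 in the 20 arrays. Fat body transcripts were high in WT-24 female replicate 1 and Non-Tg male replicate 2. There the storage protein receptor gene Fbp1 was at 5992 and 9394, against at most 627 elsewhere. The fits were also run without these 2 arrays, and of those fits only estimates of Start1 and Akh are given.

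The widest swings were those of spok, which encodes the cytochrome P450 Cyp307a2 of the early and still unresolved steps of ecdysone synthesis called the Black Box. In C96Y line Mut-101 the intensity of spok was 1646 and 2354 in males and 52.5 and 19.4 in females. In Mut-1 it was 25.8 and 34.3 in males and 70.8 and 149 in females. The males of Mut-101 were thus high and the 6 other C96Y arrays low. In WT-24 spok was at 498 and 6407 in males and 28.7 and 4385 in females. In WT-6 it was 41.8 and 51.9 in males and 3485 and 33.6 in females, so that a single array of that line was high. In Non-Tg discs it was 5165 and 1392 in males and 2538 and 60.01 in females. High and low arrays occurred side by side within 1 line and sex. The ranges of the 5 lines all overlapped, and Mut-1 was the line with no array above 149.

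Sorted by spok, the arrays left a widest gap of 1.74 on the log2 scale between 149 and 498, with 9 arrays above it and 11 below, 10 of those below it under 100. The 9 upper arrays were, from high to low, WT-24 male 2, Non-Tg male 1, WT-24 female 2, WT-6 female 1, Non-Tg female 1, Mut-101 male 2, Mut-101 male 1, Non-Tg male 2 and WT-24 male 1. They made up 2 of 8 C96Y arrays, 4 of 8 wild-type arrays and 3 of 4 Non-Tg arrays, and 6 of 10 male and 3 of 10 female arrays. The gap is a way to describe the other genes and defines no group of the study.

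**Figure D1:**
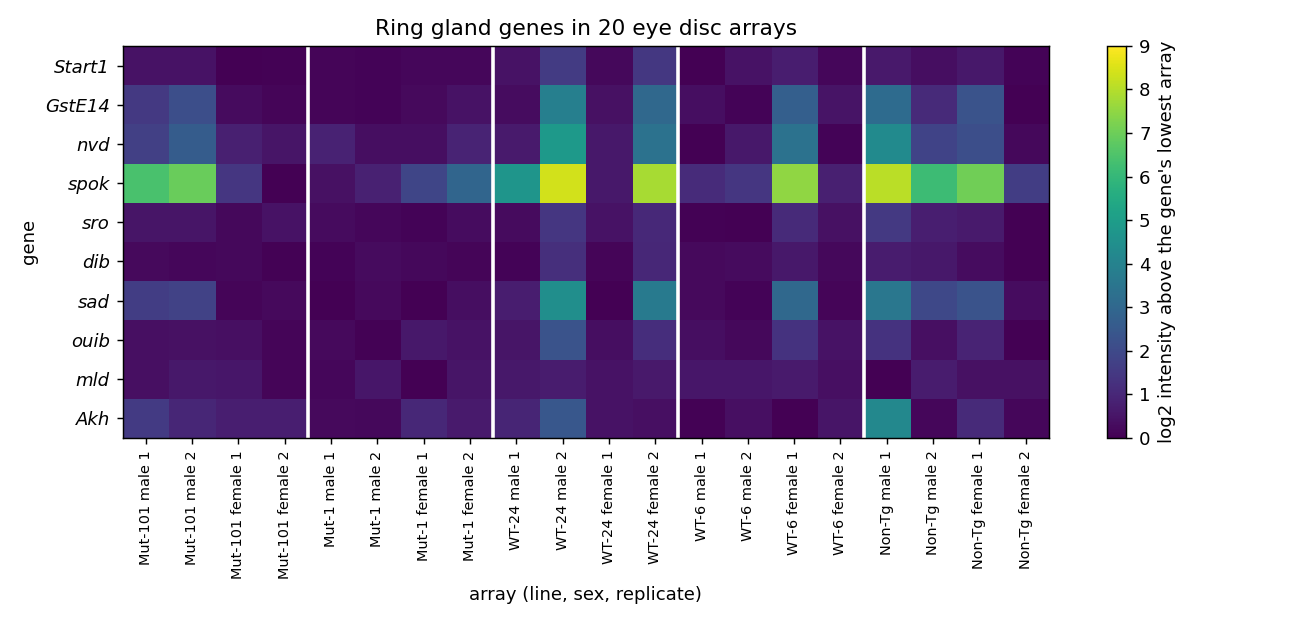
Log2 intensity of the 10 genes (down the page) in each of 20 arrays (across, by line, sex and replicate), coloured by the rise above the gene's own lowest array. The row of spok ranges over 8.37 log2 units, GstE14, nvd and sad are bright in the same arrays, mld ranges over only 0.69, and Akh is bright mainly in Non-Tg male replicate 1.

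The genes that handle cholesterol before the Black Box followed spok in part. Start1, which encodes a protein with a lipid transfer domain thought to move sterols, was between 1096 and 1476 with a median of 1198 in the 8 C96Y arrays and between 1118 and 3226 with a median of 1495 in the 8 wild-type arrays. In the Non-Tg arrays Start1 was 1699.8 and 1394 in males and 1624 and 1158 in females. Only WT-24 male 2 and WT-24 female 2 stood far out for Start1, at 3226 and 2994, while Non-Tg male 1, second for spok, had 1699.8. GstE14 encodes the glutathione transferase Noppera-bo, which the prothoracic gland needs to use cholesterol. Its intensity was between 76.5 and 319 with a median of 84.6 in C96Y discs and between 76.6 and 1043 with a median of 97.2 in wild-type discs. The Non-Tg values were 640.1 and 152 in males and 348 and 71.5 in females. The 9 upper arrays had the same order for GstE14 as for spok, although in the lowest of them, WT-24 male 1, GstE14 was at 86.97 and lay within the range of the 11 lower arrays.

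nvd encodes Neverland, the oxygenase that makes 7-dehydrocholesterol from cholesterol. In Mut-101 the intensity of nvd was 113 and 214 in males and 60.7 and 50.5 in females. In Mut-1 it was 63.1 and 44.7 in males and 43.9 and 65.9 in females. Both males of Mut-101 were again above the other C96Y arrays. In WT-24 nvd was at 54.5 and 1008 in males and 52.97 and 367 in females. In WT-6 it was 35.2 and 52.6 in males and 374 and 37.1 in females. In Non-Tg discs it was 699 and 123 in males and 159 and 40.3 in females. WT-24 male 2 and Non-Tg male 1 led by a wide margin, and at the low end nvd did not tell WT-24 male 1 from arrays low for spok.

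The other Black Box gene, sro, encodes the dehydrogenase Shroud. It was between 466 and 629 with a median of 529 in C96Y discs and between 438 and 1188 with a median of 583 in wild-type discs. Non-Tg discs had 1229 and 733 in males and 681 and 441 in females. Unlike spok, sro was highest in Non-Tg male 1, and it kept an intensity of 438 to 590.4 in the 11 arrays with low spok.

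The last steps to ecdysone are 3 hydroxylations by P450 enzymes, of which dib and sad encode those called Disembodied and Shadow. In Mut-101 the intensity of sad was 541 and 589 in males and 187 and 204 in females. In Mut-1 it was 172 and 202 in males and 174 and 215 in females. In C96Y discs only the Mut-101 males were high. In WT-24 sad was at 281 and 3742 in males and 172 and 2201 in females. In WT-6 it was 203 and 183 in males and 1400.0 and 187 in females. In Non-Tg discs it was 2033 and 672 in males and 847 and 211 in females. Every upper array lay above every lower array for sad, 281 to 3742 against 172 to 215. For dib the swing was small, with intensities between 195 and 222 with a median of 208 in C96Y discs and between 197 and 427 with a median of 220.4 in wild-type discs. In Non-Tg discs dib was 298 and 279 in males and 231 and 186 in females. Of the 9 upper arrays 6 exceeded the highest lower array for dib, and both Mut-101 males did not.

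The genes of 2 zinc finger factors in the set had different patterns. Ouija board, the product of ouib, is known to activate spok, and Molting defective, the product of mld, is known to act on nvd and spok. The intensity of ouib was between 110.2 and 161 with a median of 138 in C96Y discs and between 124 and 528 with a median of 149.6 in wild-type discs. Non-Tg discs had 269.9 and 140.0 in males and 201 and 107 in females. For ouib 5 of the 9 upper arrays were above the 11 lower ones, and both Mut-101 males, with spok at 1646 and 2354, had ouib at 139 and 142. In contrast mld was between 2117 and 3115 with a median of 2829 in C96Y discs and between 2675 and 3361 with a median of 3045 in wild-type discs. The Non-Tg values were 2081 and 3309.8 in males and 2773 and 2782 in females. For mld 6 of the 9 upper arrays were above the 11 lower ones, and its highest array was WT-24 male 2, first for spok. The lowest array of all for mld was Non-Tg male 1, second for spok. The other probe set of mld was between 189 and 516, with high and low values among arrays with low spok, at 453 and 189 in the Mut-1 females.

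**Figure D2:**
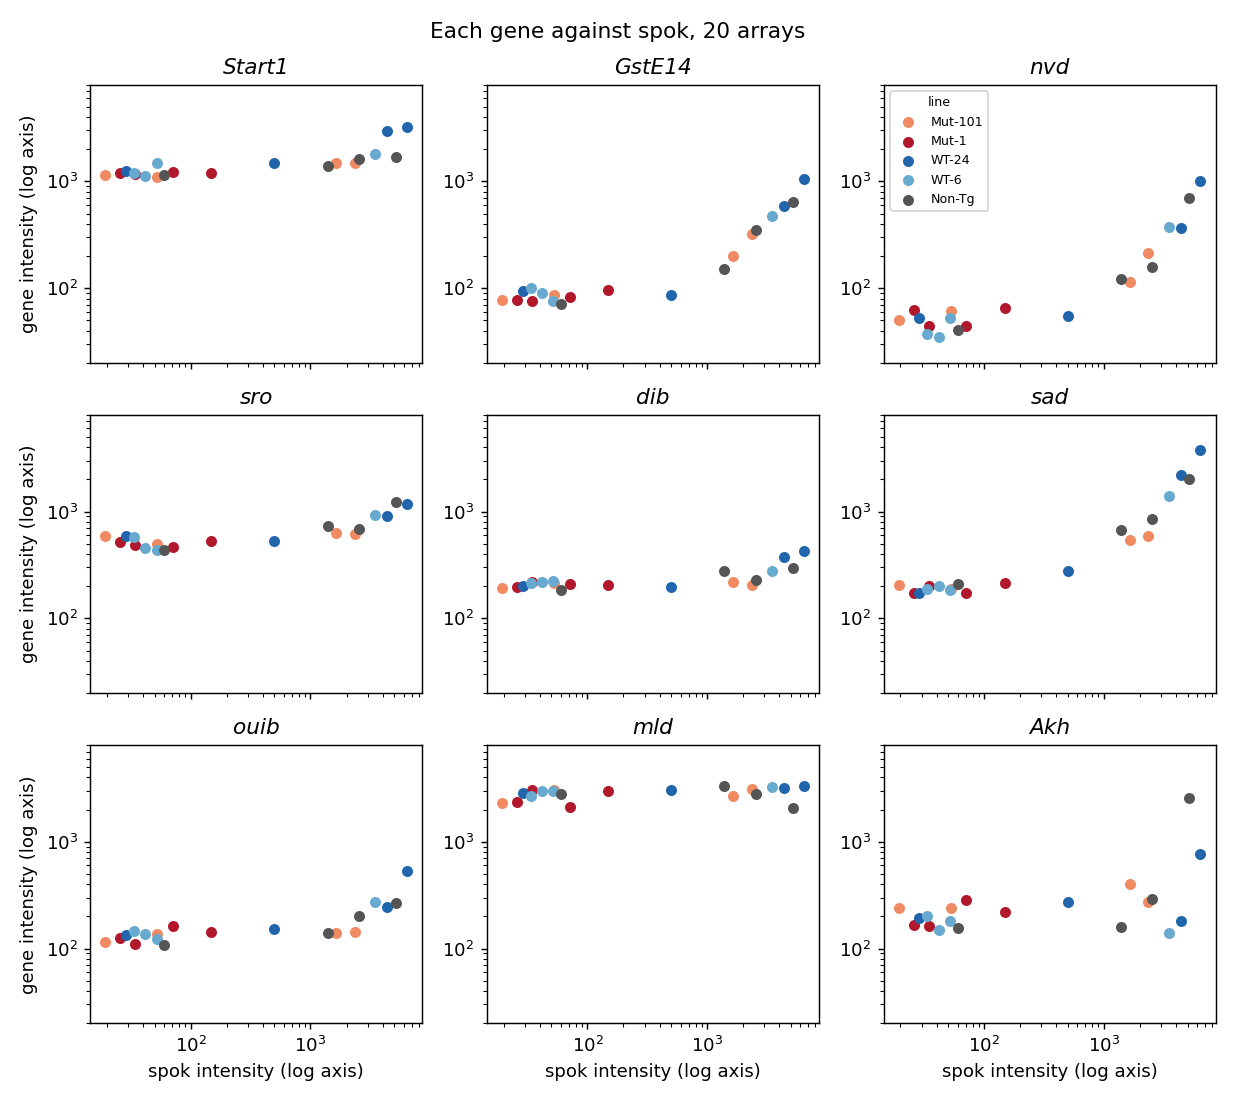
Intensity of each of 9 genes against that of spok in the same array (both axes logarithmic), with 1 point per array coloured by line. sad is above all 11 lower arrays in each of the 9 upper ones, GstE14, nvd and sro in 8, Start1, dib and mld in 6 and ouib in 5. The range of mld is narrow, between 2081 and 3361 throughout.

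The genes known for the prothoracic gland thus were high in many of the same arrays, but not by the same factor. The rise of mld was slight and was missing in Non-Tg male 1. The highest intensity was 153 times the median of the 11 lower arrays for spok, 19.97 times for nvd, 19.97 times for sad and 12.5 times for GstE14. The ratio was 3.93 for ouib, 2.72 for Start1, 2.47 for sro, 2.02 for dib and 1.18 for mld. No background level is given in the file, so a low starting intensity cannot be told from no transcript, and these ratios are approximate. Within the 9 upper arrays the log2 intensities of GstE14 (r = 0.98, rho = 1.00), nvd (r = 0.95, rho = 0.95) and sad (r = 0.94, rho = 0.93) ran with spok. The correlation was lower for sro (r = 0.87, rho = 0.85), ouib (r = 0.77, rho = 0.83), dib (r = 0.76, rho = 0.80) and Start1 (r = 0.68, rho = 0.85). For mld it was r = -0.17 and rho = 0.15, and for Akh r = 0.41 and rho = 0.42. These correlations describe 9 arrays of different lines and sexes and have no test, since the genes were chosen for them. In the 11 lower arrays r of these 9 genes with spok lay between -0.43 for sro and 0.38 for ouib.

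The genes differed in where their intensities lay when spok was low. In all 11 lower arrays Start1 (1096 to 1489), sro (438 to 590.4), dib (186 to 223), sad (172 to 215) and mld (2117 to 3073) were above 158 intensity units, the value below which the mean of 40% of the probe sets lay. For spok (19.4 to 149), GstE14 (71.5 to 99.99) and nvd (35.2 to 65.9) no lower array was above it, for ouib 1 was and for Akh 9 were. This mark is a rank among probe sets of differing affinity and not a detection call. Start1, sro, dib, sad and the brighter probe set of mld thus kept these ranges in eye disc samples in which spok was at most 149. In these arrays the other probe set of mld ran from 189 in Mut-1 female 2 to 479 in WT-6 male 2.

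Akh marks the corpus cardiacum, a different endocrine tissue of the gland, and it had a pattern of its own. In Mut-101 its intensity was 403 and 276 in males and 239 and 239 in females. In Mut-1 it was 165 and 163 in males and 282 and 219 in females. The C96Y arrays thus stayed at or below 403. In WT-24 Akh was at 271 and 761 in males and 192 and 183 in females. In WT-6 it was 148 and 181 in males and 141 and 203 in females. Its Non-Tg values were 2594 and 158 in males and 294 and 156 in females. Non-Tg male 1 and WT-24 male 2 stood far out, and Mut-101 male 1 and Non-Tg female 1 also lay above the 148 to 282 of the 11 arrays with low spok. WT-24 female 2 and WT-6 female 1 did not, although their spok intensities were 4385 and 3485.

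The corpus allatum was followed through jhamt, the gene of the methyltransferase that completes juvenile hormone, from a list of other endocrine genes. It was at 1228 in WT-6 female 1, 1220.3 in Non-Tg male 1 and 639 in Non-Tg female 1, and between 17.4 and 47.8 in the 17 other arrays. WT-24 male 2, first for spok and second for Akh, had a jhamt intensity of 26.8. Among the 3 arrays high for jhamt, Akh was at 141 in WT-6 female 1, 2594 in Non-Tg male 1 and 294 in Non-Tg female 1.

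**Figure D3:**
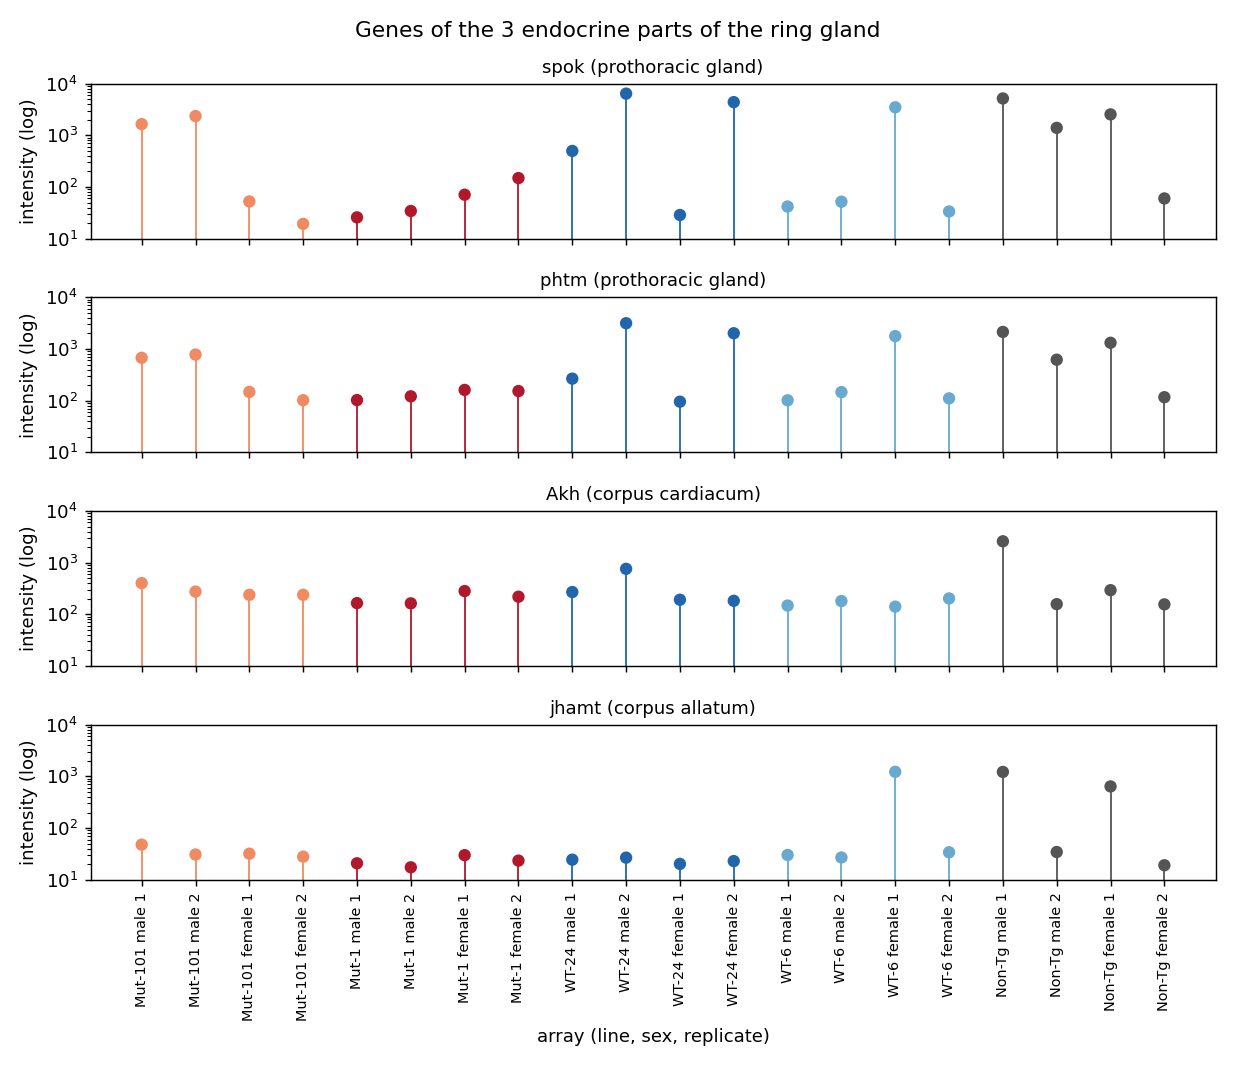
Intensity (logarithmic axis) of spok and phtm, known for the prothoracic gland, Akh, known for the corpus cardiacum, and jhamt, known for the corpus allatum, in the 20 arrays by line, sex and replicate, coloured by line. The arrays high for spok and phtm are the same, whereas Akh is high in Non-Tg male 1 and WT-24 male 2 and jhamt in WT-6 female 1, Non-Tg male 1 and Non-Tg female 1.

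The 2 arrays of a line and sex differed more than 10-fold for spok in 4 of the 10 groups, the males of WT-24 and the females of WT-24, WT-6 and Non-Tg, with ratios of 12.9 to 153. In all 4 the same array of the pair was higher for GstE14 (4.78 to 12-fold), nvd (3.95 to 18.5-fold), sad (4.02 to 13.3-fold), Start1, sro, dib and ouib. For mld that was so in 3 and for Akh in 2 of the 4 groups. The SD between arrays of a group was 2.72 log2 units for spok, the largest of all 17104 probe sets, 1.56 for nvd, 1.46 for sad, 1.32 for GstE14 and 1.00 for Akh, against a median of 0.13 over all probe sets. It was 0.57 for ouib, 0.43 for Start1, 0.41 for sro, 0.34 for dib and 0.24 for mld.

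Other genes were ranked by the correlation of their log2 intensity with that of spok over the 20 arrays, among 2020 genes that ranged over at least 1 log2 unit. First came phtm (r = 0.98, rho = 0.97), once named phm, which encodes Phantom, the Halloween P450 that acts just before Disembodied. Its intensity was 267 to 3153 in the 9 upper arrays, in the same order as spok, and 95.7 to 162 in the others. Next were CG4408 (r = 0.91, rho = 0.84) and cu (r = 0.88, rho = 0.85), the Nocturnin gene, with 381 to 3697 and 819 to 4697 in the upper arrays and 245 to 445 and 439.6 to 692 in the lower ones. The fourth was tor (r = 0.80, rho = 0.86), which encodes Torso, the receptor through which the brain hormone PTTH stimulates the prothoracic gland, although its intensity was never above 148. Within the 11 lower arrays alone, r with spok was 0.78 for phtm, 0.22 for CG4408, 0.14 for cu and 0.64 for tor. Lectin-galC1 (r = 0.79, rho = 0.77), CG31145 (r = 0.77, rho = 0.70), the channel gene CngA (r = 0.74, rho = 0.69), CG6426 (r = 0.70, rho = 0.52), EbpIII (r = 0.66, rho = 0.61) and Atet (r = 0.65, rho = 0.67) completed the 10, and Atet encodes a transporter known to load ecdysone into vesicles. Of the 2020 genes phtm and CG4408 alone had r above 0.9. By Spearman's rho 8 of these 10 were again among the first 10.

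**Figure D4:**
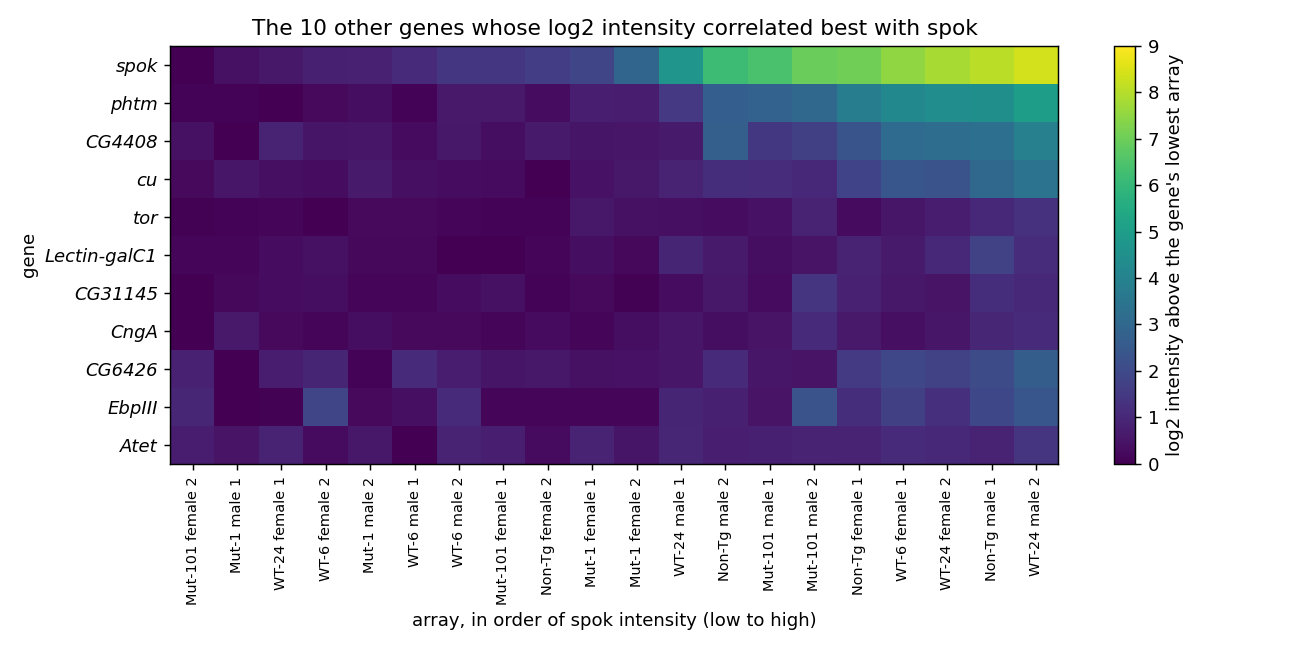
Log2 intensity of spok and of the 10 other genes with the highest correlation with it (down the page), in arrays sorted by spok intensity from low to high (across), coloured by the rise above each gene's lowest array. The rows of phtm, CG4408 and cu brighten with spok over the right-hand arrays, and the remaining rows do so weakly.

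Ranked in the same way by Akh, the first 6 were CG9875 (r = 0.82, rho = 0.64), NijB (r = 0.82, rho = 0.83), CG5157 (r = 0.80, rho = 0.76), CG15561 (r = 0.79, rho = 0.81), CG45067 (r = 0.79, rho = 0.78) and CG7634 (r = 0.76, rho = 0.79). None of the 2020 genes had r above 0.9 with Akh. By Spearman's rho 4 of these 6 were again among the first 6, and CG9875 had rank 23. CG9875 was highest in Non-Tg male 1 at 216 and in WT-24 male 2 at 173, the leading arrays for Akh. It was next highest in Mut-1 female 1, at 143, where Akh was at 282.

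Other genes of these pathways were taken from lists. Of 9 further ecdysteroid enzyme genes 7 were measured, and phtm was the only one with r above 0.5 with spok. The gene spo, a close relative of spok that acts in the embryo, was at 1298 to 1706, and shd, whose enzyme makes 20-hydroxyecdysone outside the gland, at 128 to 186. Of 16 measured genes of cholesterol uptake and trafficking only Npc1a, named after its value was seen, had r above 0.5 (0.74), at 3031 to 5254. Of 24 genes of prothoracic gland signalling 3 did, tor, the POU factor gene vvl (0.61) and kni (0.55). vvl was highest in Mut-101 male 2 at 819.5, followed by WT-24 male 2 at 800.0. The gene of this list with the widest range, Hr3 (4.25 log2 units), had r = -0.27. Of 14 genes of juvenile hormone synthesis jhamt (0.56) and Mvd (0.55) did, and of the 9 other genes of the corpus cardiacum list none did. Among the 2020 genes ranked by spok, r was 0.502 at rank 32 and 0.498 at rank 33, so r above 0.5 was rare. The coefficients of the listed genes describe 20 arrays that fall in separate sets and carry no test.

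Markers of other tissues near the disc were also set beside spok. None of 6 measured fat body, 17 brain and neuronal, 8 salivary gland, 10 muscle, 12 haemocyte or 14 eye disc genes had r above 0.5 with spok, and 1 of 10 tracheal genes, obst-A, did (0.65). As r above 0.5 was rare among all genes, lists of this size could lack it in any case, and these counts do not set the tissues apart. The 10 muscle genes had r from 0.09 for bt to 0.44 for Mf. The summed intensity of the brain and neuronal genes was 12682 to 14807 in the upper arrays and 11034 to 15298 in the lower ones. For the tracheal genes the sums were 34434 to 36906 and 30877 to 37293. Muscle genes summed to 5529.5 to 14002 in the upper and 4546 to 11908 in the lower arrays. Of the 2 arrays with fat body transcripts, WT-24 female 1 had low and Non-Tg male 2 high spok.

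The first comparison asked whether C96Y discs differed from discs with wild-type proinsulin. None of the 10 genes was called different, against 11% of all 17104 probe sets (limma, adjusted p under 0.05), and 1 of 10, Start1, had an unadjusted p under 0.05, against 24.3% of all probe sets. Their median log2 difference was -0.48, against 0.01 over all probe sets, and 9 of the 10 estimates were negative. These estimates are not independent, since most of the genes were chosen for going up and down together over these arrays. The median and the signs therefore only describe the set. The sign of 1 of the 10 changed under some alternatives, such as leaving out WT-6. The difference of spok was -1.43 ± 1.19 log2 units (SE; 95% interval -3.996 to 1.14; limma adjusted p = 0.514), that of sad -0.99 ± 0.640 (adjusted p = 0.386) and that of nvd -0.69 ± 0.683 (adjusted p = 0.595). Start1 stood at -0.45 ± 0.187 (adjusted p = 0.159), ouib at -0.51 ± 0.254 (adjusted p = 0.239) and dib at -0.30 ± 0.154 (adjusted p = 0.260). The interval of spok runs from a large decrease through no difference to an increase of 1.14. It did not settle the direction or the size of the difference. Without WT-24 female 1, an array low for spok with fat body transcripts, the log2 difference of Start1 was -0.60. Without WT-24 male 1 it was -0.44 for dib and -0.74 for ouib. These fits left WT-24 female 2, second highest for Start1, and WT-24 male 2, highest for dib and ouib, alone in their groups. Each lone array was assumed to vary like the other groups. Markers of other tissues were called in this comparison, in which 4.27% of all probe sets fell and 6.72% rose. Of these markers 5 of 17 brain and neuronal genes, 3 of 10 tracheal genes and 1 of 12 haemocyte genes fell and none of them rose. Of 14 eye disc genes 5 fell and 2 rose, and elav is in both the brain and the eye disc list. Brain and neuronal genes summed to 11034 to 14106 in C96Y and 13263 to 14807 in wild-type discs, tracheal genes to 30877 to 36113 in C96Y and 34649.5 to 37293 in wild-type discs, and their part in the result was not tested.

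C96Y was also set against non-transgenic discs, where the same C96Y arrays serve again. None of the 10 genes was called, against 6.07% of all probe sets. All 10 estimates were negative, with a median of -0.52 against -0.01 over all probe sets, but again they are not independent of each other. Of the 10, 1 turned positive under several alternatives, such as arrays centred on their medians. spok stood at -3.12 ± 1.46 (95% interval -6.26 to 0.02; limma adjusted p = 0.232), sad at -1.48 ± 0.783 (adjusted p = 0.286), and Akh at -0.63 ± 0.539 (adjusted p = 0.516). The call of Akh turned on 1 array: with Non-Tg male 2 left out, so that Non-Tg male 1 alone stood for its group, its log2 difference was called (-1.64, adjusted p = 0.00721). That lone array was assumed to vary like the other groups. In this comparison, in which 2.31% of all probe sets fell and 3.76% rose, 3 of 17 brain and neuronal genes (elav, of the eye disc list as well, among them), 2 of 10 tracheal genes and 1 of 12 haemocyte genes fell and none of them rose. Of 14 eye disc genes 2 fell and 2 rose. Their part in the result was not tested. Wild-type proinsulin against the same non-transgenic discs gave no call among the 10, against 0.0819% of all probe sets, with spok at -1.69 ± 1.46 (adjusted p = 0.898) and Akh at -0.75 ± 0.539 (adjusted p = 0.882). There too Akh was called without Non-Tg male 2 (-1.76, adjusted p = 0.0458).

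Lines of 1 transgene were compared as well. Between Mut-101 and Mut-1 none of the 10 was called, against 2.06% of all probe sets. The mean spok intensity was 1018 ± 1170.4 in Mut-101 and 69.9 ± 56.1 in Mut-1 (SD, n = 4 each, linear scale). The difference of mean log2 intensities was 2.18 ± 1.68 (SE; limma adjusted p = 0.708). Between WT-24 and WT-6 none was called, against 0.55% of all probe sets. All 10 estimates, which are not independent, were positive, but 9 of the 10 changed sign with the replicate number of the descriptions as a block. The mean of spok was 2829.7 ± 3082 in WT-24 and 903 ± 1721 in WT-6 (SD, n = 4 each, linear scale), with a difference of mean log2 intensities of 2.66 ± 1.68 (adjusted p = 0.910), and Start1 differed by 0.58 ± 0.265 (adjusted p = 0.759).

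Male discs were set against female discs over the 5 lines. None of the 10 was called, against 8.9% of all probe sets. The median intensity of spok was 945 in the 10 male arrays and 65.4 in the 10 female arrays, with a log2 difference of 1.28 ± 1.06 (95% interval -1.01 to 3.57; limma adjusted p = 0.474). The difference of Akh was 0.54 ± 0.394 (adjusted p = 0.413), and it was called without Non-Tg male 2 (0.94, adjusted p = 0.0153). The C96Y effect in males minus that in females was called for none of the 10 genes and for 0% of the probe sets, where 736 of 17104 had an unadjusted p under 0.05, and for spok it was 2.35 ± 2.38 (adjusted p = 0.963).

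**Figure D5:**
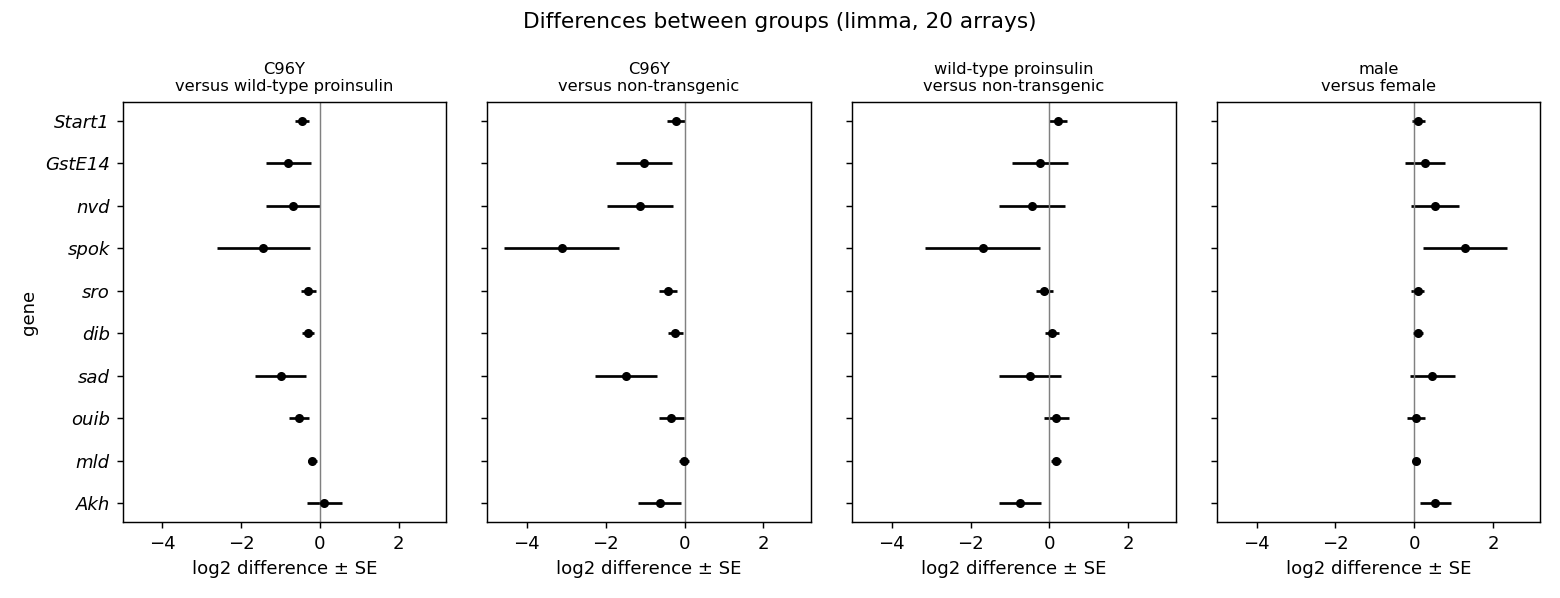
Log2 difference (horizontal axis, with SE from limma over 20 arrays) of each of the 10 genes (down the page) in 4 comparisons, with a grey line at 0. The widest bars are those of spok, with SE of 1.06 to 1.46, and no gene passed an adjusted p of 0.05.

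In the same fits some listed genes that did not follow spok were called. In C96Y against wild-type discs the ferredoxin gene Fdx1, whose product is known to pass electrons to mitochondrial P450 enzymes, rose by 0.54 ± 0.0408 (limma adjusted p = 2.26e-06) and was the only called gene of the 7 further ecdysteroid enzyme genes. Of 16 cholesterol genes 3 rose and none fell (6.72% of all probe sets rose and 4.27% fell), LpR1 by 0.44 ± 0.0584, SCAP by 0.17 ± 0.0330 and the sterol-response factor gene SREBP by 0.25 ± 0.0352. Of 24 prothoracic gland signalling genes 2 fell and none rose, the receptor gene Egfr (-0.15 ± 0.0384) and usp (-0.12 ± 0.0313), which encodes the partner of the ecdysone receptor. Of 14 juvenile hormone genes Hmgs rose (0.29 ± 0.0425) and Jheh2 fell (-0.09 ± 0.0248). Of 10 genes of the corpus cardiacum list Pal1 rose (0.15 ± 0.0379), and gl (-0.12 ± 0.0318) and svr (-0.22 ± 0.0494) fell. The gene gl is on the eye disc list as well and is also counted among the eye disc genes that fell. Called genes were named after their values were seen. Fdx1, SREBP and LpR1 also differed between Mut-101 and Mut-1, where Mut-101 was lower, with log2 differences of -0.72 ± 0.0577, -0.24 ± 0.0497 and -0.36 ± 0.0826 (adjusted p = 1.65e-05, 0.0245 and 0.0440). The intensity of Fdx1 was 2649.6 to 2916 in Mut-1 and 1372 to 1799 in all other arrays, so its high arrays were ones in which spok was low. Without Mut-1, an alternative added with the data in view, 0 of the 11 genes called here were called, and Fdx1 stood at 0.18 (adjusted p = 0.0987), LpR1 at 0.27 (adjusted p = 0.0895) and SREBP at 0.13 (adjusted p = 0.118). With arrays centred on their medians 3 of the 11 were called, Fdx1, LpR1 and Hmgs, and with quantile normalization all 11 were.

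Against non-transgenic discs, where 3.76% of all probe sets rose in C96Y discs and 2.31% fell, Fdx1 rose (0.53, limma adjusted p = 3.13e-05), as did LpR1 (0.54 ± 0.0716) and SREBP (0.21 ± 0.0431). Dsor1, the MEK kinase gene of the pathway that Torso uses, fell (-0.11 ± 0.0263). Without Mut-1 0 of these 4 were called, with arrays centred on their medians 2 were, Fdx1 and LpR1, and with quantile normalization all 4 were. None of the juvenile hormone or corpus cardiacum genes was called with all lines. Between male and female discs, where 6.12% of probe sets were higher and 2.78% lower in males, shd was higher in males (0.23 ± 0.0527, adjusted p = 0.0184), as was gce, a juvenile hormone receptor gene (0.37 ± 0.0558), and Dsor1 was lower (-0.20 ± 0.0192). Of the corpus cardiacum list Phm (0.07 ± 0.0209) and Sur (0.53 ± 0.150) were higher in males and svr was lower (-0.40 ± 0.0442). With arrays centred on their medians 2 of these 6 genes were called, Dsor1 and svr, and the estimate for Phm was -0.02. The same 2 were called with quantile normalization. Of 10 muscle genes 3 were higher in males and none lower. Of 17 brain and neuronal genes 2 were higher and 1 lower, and of 12 haemocyte genes 1 was higher. Of 14 eye disc genes 2 were lower, sev and elav, which is on the brain list as well. The part of these other tissues in the sex comparison was not tested.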

How the data were processed

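Per the submitters' processing notes the authors made the deposited values with MAS5, and the deposited table holds linear array intensity with no detection calls. Array means are nearly equal, so the values were used as deposited, without a pseudocount or an intensity filter. Per the labels' protocols RNA was amplified with NuGEN Ovation before labelling. Of 18952 probe sets 183 were controls, 13647 named 1 gene, 402 named several and 4720 none. Each gene was represented by its brightest probe set, and 17104 were fitted. Entrez numbers matched RefSeq for 13544 of the 13647. Log2 of the deposited intensity was tested with limma 3.58.1 in R 4.3.3 (lmFit, eBayes with trend), 1 mean per line and sex, two-sided, with Benjamini-Hochberg adjustment over all probe sets. The fit was tested on simulated data. The number of arrays limits the precision. The genes and lists were chosen with earlier results of these data known. Named were all 10 genes, the most correlated genes that range over at least 1 log2 unit, and some genes of the lists. Not every list gene with a wide range was named, Cyp18a1 and Npc2g for example, and some of narrow range were, such as spo and shd. Intensity filter, pseudocount, normalization, blocking and leaving out arrays were varied.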

Additional observations from a re-analysis of the deposited data

Results flagged for a closer look

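Among the 4 arrays of each line, 5 of 50 tests of an array far from the others were positive, where chance gives about 1 in 20. All concerned WT-6 female 1. In that array spok was at 3485 against 33.6 to 51.9 in the other WT-6 arrays, sad at 1399.95 against 183 to 203, and GstE14 at 477.8 against 76.6 to 99.99. nvd was at 373.67 against 35.2 to 52.6, and dib at 276.37 against 214 to 223. The 5 values come from 1 array and are not independent, and the genes were chosen for such swings over these same arrays, so the tests are a description and support nothing.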

How the results depend on the processing

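None of the 10 genes was called in the 7 comparisons as reported. Leaving out 1 array at a time gave 0 to 2 calls in C96Y against wild-type discs, and 0 to 1 in C96Y against non-transgenic, wild-type against non-transgenic and male against female discs. Each of these fits left 1 array alone in its group, which was assumed to vary like the other groups. Both arrays rich in fat body transcripts were also left out, a choice made after seeing the data. WT-24 female 2 and Non-Tg male 1 were then alone in their groups. The log2 difference was -0.60 for Start1 in C96Y against wild-type discs. For Akh it was -1.64 in C96Y against non-transgenic and 0.95 in male against female discs. The cause of the difference from the reported fits was not tested. With the replicate block from the titles the 10 genes gave 0 calls and all probe sets 1690 in C96Y against wild-type discs, against 1881 without it. Arrays with the same number in the titles deviated together (r above 0.1) in 17 of 45 pairs of groups, with a median r of -0.06 (-0.555 to 0.408). The title numbers were thus not used to pair the samples in the reported fits. The description numbers were not checked in this way, and whether they mark batches was not tested. Of the estimates of the 10 genes over the comparisons, 28 of 70 changed sign with the description block, 10 of 60 without WT-6 and 5 of 70 with arrays centred on medians, none of them called. The count of all probe sets called in C96Y against wild-type discs was 605 with arrays centred on medians and 1797 with quantile normalization. It was 577 with a replicate block from the descriptions and 551 without Mut-1. Intensities near background have no detection call, which limits ratios of low genes. Without Mut-1, 0 of 11 listed pathway genes called in C96Y against wild-type discs were called, with 16 arrays in place of 20.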
